A study of Mus musculus with 50 samples.

Results

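The data below are the change of the stress response of DBA/2J mice between 4 h and 8 h after a swim, measured in the hypothalamic paraventricular nucleus (PVN). The log2 stress ratio of 4 h was subtracted from that of 8 h for each of 22824 cDNA clones, on 20 of the 50 arrays of the series. The 20 arrays were 10 labelled DBA_4h vs. basal and 10 labelled DBA_8h vs. basal, and every clone that was not a control spot entered.

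The animals were single-housed male DBA/2J mice aged 3 to 5 months, an inbred strain without transgene or treatment other than the stress. Stressed mice swam for 5 min, at clock hour 12 in the 4 h group and at clock hour 8 in the 8 h group. All mice were killed at clock hour 16, and the non-stressed mice supplied the basal RNA. The delay after the swim and the hour of the swim therefore cannot be told apart. RNA of PVN micropunctures from 6 animals was pooled per condition, amplified in 2 rounds and hybridised against the basal pool on spotted 2-colour cDNA arrays. The stressed pool carried Cy5 on arrays 1 to 5 of each comparison and Cy3 on arrays 6 to 10. The same basal DBA/2J pool served both times, so it cancelled in the difference, and the contrast set the 8 h pool against the 4 h pool. The 10 arrays of a time were repeat hybridisations of the same RNA, so every SE and p-value below covers array-to-array error and none covers the spread between animals. The 20 C57BL/6 arrays of the same design, from a strain with its own basal pool, were used for comparison only.

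The PVN drives the hormonal stress axis through neurosecretory neurons that release corticotropin-releasing hormone, and other neurons of the nucleus make vasopressin, oxytocin and thyrotropin-releasing hormone. Stress signals reach these cells through G protein-coupled receptors, calcium and kinase cascades, and adrenal glucocorticoids feed back through the glucocorticoid receptor, which is held in a hormone-binding state by the HSP90 machinery. Secretion then depends on granule processing, vesicle fusion and the synthesis, folding and transport of new protein.

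The stressed pool was put over the non-stressed pool by the dyes of the labels, and "higher" means a larger ratio at 8 h than at 4 h. This direction opposes that of the folds published for these arrays and, for Gnai2 and App, that of the study's PCR on unpooled samples. The study also reports an increase by in situ hybridisation. The sign of every value is therefore uncertain, and these measurements of the study go with the turned sign. With the sign turned, every direction below reverses and every size stays: the largest rise of 1.38 becomes -1.38, and the largest fall of -1.31 becomes 1.31.

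Median clone intensity was higher at 8 h in Cy5, at 192 to 277 against 154 to 193 at 4 h, with 9 of the 10 arrays at 8 h above every array of 4 h. In Cy3 it overlapped, at 307 to 450 against 278 to 458. The median empty spot was at 79.0 to 111 at 4 h and 75.5 to 141 at 8 h. The brightest empty spots were brighter at 8 h, where their 95th percentile was 1830 to 3808 against 479 to 1037 at 4 h. Consequently 16.9% to 26% of the clones exceeded that percentile on a 4 h array and 5.60% to 9.13% on an 8 h array. By the date in their headers the 4 h arrays fell on 2 days and the 8 h arrays on 3 others. This day is called scan day below, although the header line says only that it is a date. Time and this day cannot be told apart, and the part of these intensity differences in the results was not tested. Stress ratios agreed weakly between arrays over all clones. Arrays with the same dye orientation correlated at a median r of 0.10 at 4 h and 0.06 at 8 h, whereas arrays of opposite orientation had medians of -0.03 and 0.00 (a description across clones, which are not replicates).

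Defining PVN transcripts were dim on these arrays. None of the 11 clones of a PVN neuron marker list exceeded the empty-spot percentile on at least 5 arrays of each time. The Avp clone (vasopressin) exceeded it on 0 of 10 arrays at 4 h and on 4 of 10 at 8 h, the Oxt clone (oxytocin) on 0 arrays at either time, and the Trh clone on 7 and 0. No clone could be assigned to Crh. In bulk tissue, fewer cells of a type and less RNA per cell cannot be told apart.

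In total 229 clones, 1.00% of the 22824 tested, differed between the times by limma's moderated test (Benjamini-Hochberg adjusted p under 0.05 over all clones and a difference of at least 0.5 on the log2 scale, the fold threshold of the study's methods). Of these, 128 clones were higher at 8 h (0.561% of all clones) and 101 were lower (0.443%). The called differences ran from 0.52 to 1.38 upward, a 2.61-fold change at most, and from -0.52 to -1.31 downward, or 2.48-fold. The median called rise was 0.81 and the median called fall -0.74. By the same rule 2 of 1368 control spots were called (0.146%), both of them empty spots. A gene symbol could be assigned to 172 of the 229 clones, which stood for 159 genes, and to 8192 of the 22824 clones tested. Of the 4073 clones on the gene lists below, 90 were called. Of the 1539 clones above the empty-spot percentile on at least 5 arrays of each time, 103 were called. Calls were thus commoner among named and bright clones than the 1.00% over all clones, and a list's share above 1.00% is no sign of enrichment.

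The clones that were higher at 8 h had a median stress ratio of -0.56 at 4 h and 0.22 at 8 h. Those that were lower at 8 h had 0.42 at 4 h and -0.35 at 8 h. Thus in both directions the 4 h ratio lay farther from 0 than the 8 h ratio, as medians over clones chosen by the difference between the 2 times, a description without a test. The 2 comparisons share the basal pool. For 46 of the 229 clones the 10 ratios at 8 h did not overlap the 10 at 4 h, against 0.245% of all clones, and the difference had the same sign in both dye orientations for 228. Both counts are descriptions, since the clones were chosen by this difference on these arrays.

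**Figure D1:**
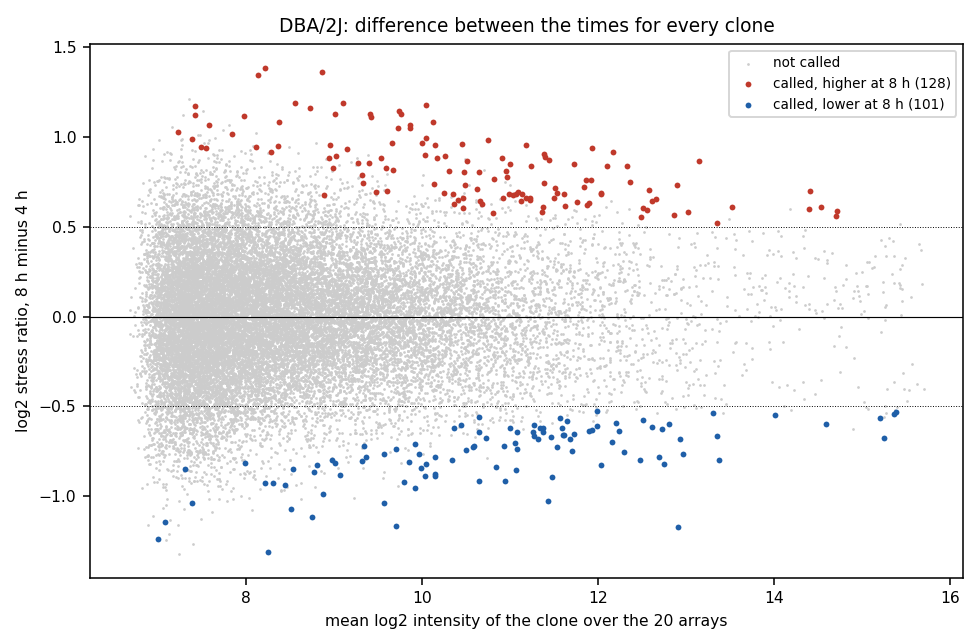
The log2 stress ratio at 8 h minus that at 4 h (vertical axis) is plotted against the mean log2 intensity over the 20 arrays (horizontal axis) for all 22824 clones. The 128 clones called higher are red, the 101 called lower are blue, and dotted lines mark the threshold of 0.5. Called clones occur over the whole intensity range, and the called differences are larger among dim clones.

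Among receptors and hormones of the axis, the thyrotropin-releasing hormone clone was higher at 8 h and the glucocorticoid receptor clone was lower. The log2 stress ratio of Trh on the 10 arrays at 4 h was -1.18 at its lowest, -0.72 at the median and -0.36 at its highest, so all 10 lay below 0. At 8 h it was -0.99, 0.02 and 1.04, with 5 of 10 arrays above 0. The groups overlapped because 2 arrays of 8 h lay within the range of 4 h, and the difference was 0.81 ± 0.19 (SE, limma adjusted p = 0.046), a 1.76-fold change.

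Nr3c1, the glucocorticoid receptor, went the other way. Its ratio was -0.17 at the lowest, 0.62 at the median and 0.97 at the highest of the 10 arrays at 4 h, where 9 were above 0, and -0.54, -0.02 and 0.35 at 8 h. The groups overlapped, with a difference of -0.64 ± 0.15 (limma adjusted p = 0.047). Neither call was secure against single arrays, since only 2 of the 20 fits that each left out 1 array kept Trh and only 1 kept Nr3c1. In C57BL/6 the same clones differed by -0.31 and 0.19 between the times.

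Of the 20 clones of PVN neuropeptides and their receptors Trh was the only one called (5%, against 1.00% of all clones). The median difference was 0.14 against 0.00 over all clones. Avp and Oxt differed by 0.04 ± 0.23 and 0.13 ± 0.27, each less than its SE. Of 55 clones for the glucocorticoid receptor and its target genes, 1 was higher and 3 were lower, with a median of 0.04. Of the lower ones, 2 were clones of Ptges3, an HSP90 co-chaperone that is counted again with the chaperones below. The share called was 7.27%, against 1.00% of all clones. The higher one was Mt1, metallothionein 1, a metal-binding protein inducible by glucocorticoids. Its ratio ran from -0.93 to 0.30 with a median of -0.38 at 4 h, and from -0.19 to 0.92 with a median of 0.40 at 8 h, a difference of 0.75 ± 0.15 (limma adjusted p = 0.016).

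The classical feedback targets were not called. Fkbp5, a co-chaperone that restrains the receptor, differed by 0.35 ± 0.20, Sgk1, a glucocorticoid-induced kinase, by 0.23 ± 0.24, and the clock gene Per1 by 0.13 ± 0.27. None of the 33 clones of immediate early genes and none of the 29 of the circadian clock was called, with medians of -0.05 and 0.07. Over all clones 1.00% were called. The median SE over all clones was 0.27. The Sgk1 clone exceeded the empty-spot percentile on 0 arrays. Per1 exceeded it on 2 arrays at 4 h and Fkbp5 on 10, and both on 0 at 8 h. In Fkbp5, Sgk1 and Per1 the difference had opposite signs in the dye orientations, so an unchanged level was not shown.

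Protein folding held the clone with the smallest p-value of the experiment. Ptges3, also known as p23, is the HSP90 co-chaperone that stabilises steroid receptors in their hormone-binding form, and it was lower at 8 h. The brightest of its 4 clones had ratios of 0.00 at the lowest, 0.30 at the median and 0.59 at the highest at 4 h, and of -1.14, -0.89 and -0.63 at 8 h. All 10 arrays at 8 h lay below all 10 at 4 h. The difference was -1.17 ± 0.13, a 2.25-fold fall (limma adjusted p = 0.00017), and it was -1.42 with the stressed pool in Cy5 and -0.93 with it in Cy3.

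A further Ptges3 clone also separated the times completely, from -0.16 to 0.44 at 4 h against -0.92 to -0.46 at 8 h (difference -0.78 ± 0.12, limma adjusted p = 0.0046). The remaining Ptges3 clones were not called and disagreed, at 0.38 and -0.38. Canx, calnexin, a lectin chaperone of the endoplasmic reticulum, had 2 of 3 clones called. In the stronger of them the ratio ran from -0.37 to 0.92 with a median of 0.53 at 4 h and from -0.81 to -0.29 with a median of -0.57 at 8 h. A single 4 h array overlapped the 8 h range, and the difference was -1.03 ± 0.16 (limma adjusted p = 0.0046). The brightest Canx clone differed by -0.50 ± 0.13 without passing the test (adjusted p = 0.061).

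Cct4 and Cct8, subunits of the cytosolic chaperonin that folds actin and tubulin, were lower by -0.72 ± 0.13 and -0.61 ± 0.13. The higher members were Dnajb3, a J-domain co-chaperone, at 0.64 ± 0.13, and 2 clones titled "heat shock protein, 1" at 0.94 ± 0.15 and 0.76 ± 0.13. That title names no single gene because the array file dropped the protein's size, and 3 more clones carrying it were between -0.40 and -0.12 and were not called. Altogether 3 of the 140 clones of heat shock proteins and chaperones were higher and 6 were lower (6.43% called, against 1.00% of all clones). The other 131 were not called. The list's median difference was -0.13 against 0.00 over all clones.

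The sequences upstream of 3 of the 12 genes with 2 or more called clones are shown as examples of gene starts with and without stress-regulated motifs, chosen after their values were seen: Ptges3 and Canx, lower at 8 h, and Nmt1, higher at 8 h. Each is the 250 bases before the RefSeq gene start in GRCm38.p6, written 5′ to 3′ on the gene's strand, with capitals for any match on either strand to AGAACA (the glucocorticoid receptor core motif), TGACG (the cyclic AMP response core motif) or GAANNTTC (a heat shock element). Matches of AGAACA and GAANNTTC can overlap, since both hold GAA. A match is a description of the letters only.
Ptges3, chr10:128058732-128058981, plus strand: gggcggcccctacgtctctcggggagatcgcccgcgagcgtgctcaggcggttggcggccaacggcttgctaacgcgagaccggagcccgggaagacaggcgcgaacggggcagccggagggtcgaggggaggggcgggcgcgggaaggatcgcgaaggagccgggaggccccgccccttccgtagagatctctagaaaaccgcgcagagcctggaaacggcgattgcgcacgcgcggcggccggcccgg
Canx, chr11:50325674-50325923, minus strand: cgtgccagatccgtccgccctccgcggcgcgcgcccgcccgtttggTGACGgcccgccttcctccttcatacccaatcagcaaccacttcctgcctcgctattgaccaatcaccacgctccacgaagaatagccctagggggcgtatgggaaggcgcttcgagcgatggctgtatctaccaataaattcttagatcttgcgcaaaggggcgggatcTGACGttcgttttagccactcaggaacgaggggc
Nmt1, chr11:103028293-103028542, plus strand: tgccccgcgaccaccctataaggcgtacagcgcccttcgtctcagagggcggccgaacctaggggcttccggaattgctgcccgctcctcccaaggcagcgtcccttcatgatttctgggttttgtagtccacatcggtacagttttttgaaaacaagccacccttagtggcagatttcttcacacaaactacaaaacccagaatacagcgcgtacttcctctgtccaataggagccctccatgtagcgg
Only the Canx sequence held matches, 2 of TGACG. Of the called genes of known symbol, 59 of those lower and 66 of those higher at 8 h had an upstream sequence. TGACG or its complement was in 35.6% of the lower, 25.8% of the higher, 27.8% of the 4450 array genes with a sequence and 17.8% of all 32851 sequences. AGAACA was in 8.47%, 13.6%, 11.2% and 16.1%, and GAANNTTC in 5.08%, 4.55%, 4.79% and 6.69%, respectively. These shares were not tested.

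In signal transduction few clones were called. Gnai2 was higher at 8 h, and 3 of the 102 clones of the calcineurin, NFAT and calmodulin list were lower. These were Ppp3cb, Nfat5 and Itpr1 (2.94%, against 1.00% of all clones and 90 of the 4073 clones on gene lists). Gnai2 encodes the alpha subunit that lowers cyclic AMP in response to receptors. The ratio of its called clone was -1.62 at the lowest, -1.15 at the median and 0.10 at the highest at 4 h, with 9 of 10 arrays below 0. At 8 h it was -0.86, 0.27 and 1.52, with 8 of 10 arrays above 0. The times overlapped, since 2 arrays of 8 h lay within the range of 4 h, and the difference was 1.36 ± 0.26, a 2.57-fold rise (limma adjusted p = 0.014) that was kept in all 20 fits leaving out 1 array. The other, brighter Gnai2 clone differed by 0.43 ± 0.25 and was not called (adjusted p = 0.52). The called clone was dim, above the empty-spot percentile on 2 of 10 arrays at 4 h and on 0 at 8 h.

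Gnai2 was the only called clone among the 77 on the list of G proteins, their RGS regulators and adenylate cyclases. That list had 1.30% called, against 1.00% of all clones, and a median of 0.00. The brightest clone of Prkcz, an atypical protein kinase C, was higher by 0.90 ± 0.20, while its 4 other clones gave -0.42 to -0.07 and were not called. Ptpn11, the phosphatase SHP-2 of growth factor signalling, was higher by 1.05 ± 0.24. Both calls held in 8 of the 20 fits that left out 1 array. Brsk2, a brain kinase of neuronal polarity, ranged from -1.52 to -0.66 at 4 h and from -0.42 to 0.46 at 8 h without overlap. Its difference was 1.05 ± 0.15 (limma adjusted p = 0.0032).

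The MAP kinase cascade gave 1 called clone of 125 (0.8%, against 1.00% of all clones). It was Pea15a (0.68 ± 0.16), a phosphoprotein that anchors ERK in the cytoplasm. The other Pea15a clones gave -0.22 to 0.79 and were not called. Mapk3 (ERK1) itself had a difference of 0.84 ± 0.24 that missed the threshold (adjusted p = 0.099). The growth factor and transcription factor network that the study drew from these arrays had 31 clones listed, with a median of -0.15. Of these, Gnai2 and Prkcz were called higher (6.45%). That list was chosen on the same samples and is not independent evidence.

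The catalytic calcineurin subunit Ppp3cb had 1 of 4 clones called. Its ratio ran from -0.09 to 1.36 with a median of 0.67 at 4 h and from -0.94 to 0.14 with a median of -0.32 at 8 h (difference -1.04 ± 0.18, limma adjusted p = 0.0084). The brightest Ppp3cb clone, in contrast, gave -0.26 ± 0.13 (limma adjusted p = 0.45). The other uncalled Ppp3cb clones gave -0.28 and 0.23.

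Nfat5, the transcription factor of the osmotic response, which calcineurin does not activate, had ratios of 0.12 to 1.25 at 4 h, all 10 above 0, and of -0.93 to 0.36 at 8 h, with 3 above 0. The difference was -0.94 ± 0.20 (limma adjusted p = 0.024). Itpr1, the receptor that releases calcium from the endoplasmic reticulum, was lower by -0.70 ± 0.13, and Plcb3, a phospholipase C that makes the ligand of that receptor and stood outside the list, by -0.83 ± 0.13. The list's median was -0.03. The 3 clones of Nfatc1 differed by -0.31 to 0.57 and none was called.

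**Figure D2:**
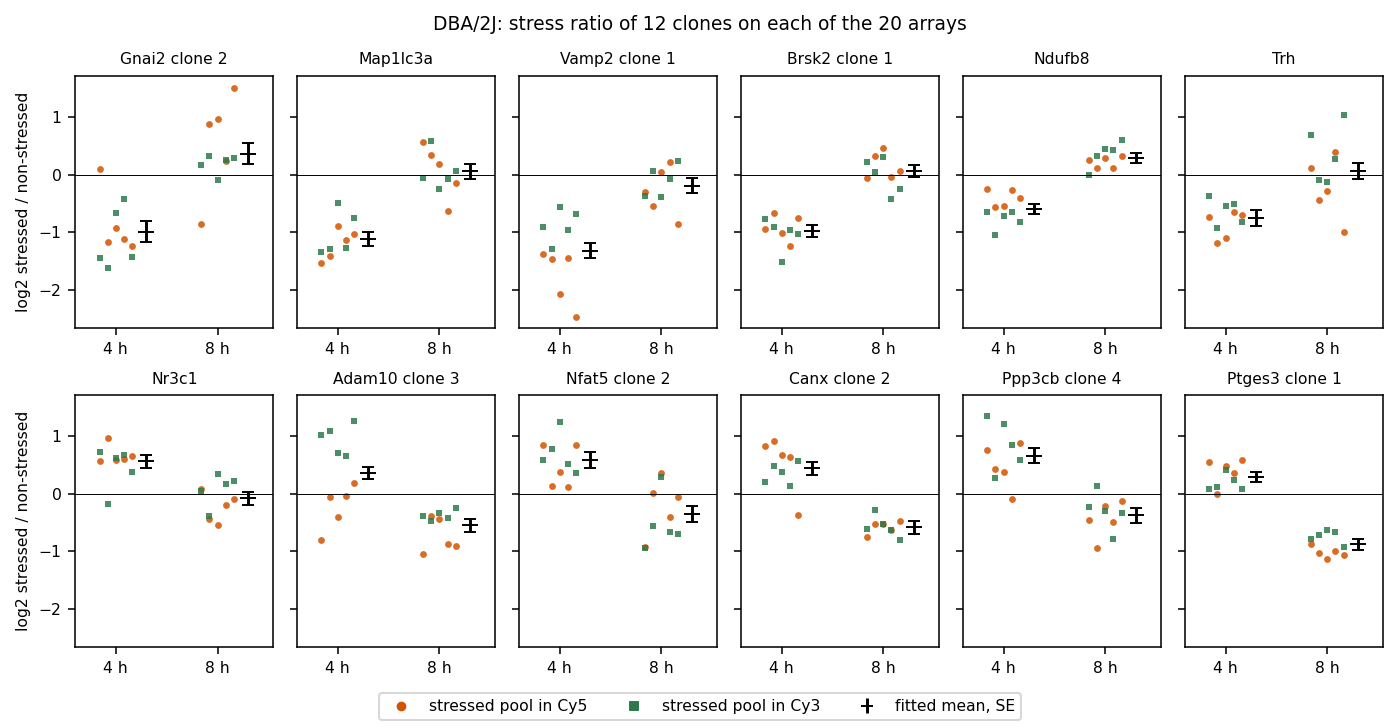
Each panel gives the log2 ratio of stressed over non-stressed RNA (vertical axis) for 1 clone on the 10 arrays at 4 h and the 10 at 8 h. Circles are arrays with the stressed pool in Cy5, squares arrays with it in Cy3, and black marks the fitted mean with its SE. Ndufb8, Brsk2 and Ptges3 separate the times without overlap, while 2 of the 8 h arrays of Gnai2 and of Trh fall inside the 4 h range, and 4 of the 10 arrays of Nr3c1 at 8 h lie below all those at 4 h.

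Vesicle release genes moved in both directions. Vamp2, the synaptic vesicle SNARE, was strongly negative at 4 h, at -2.47, -1.33 and -0.56 (lowest, median, highest), and stood at -0.85, -0.18 and 0.24 at 8 h. A single 8 h array reached into the 4 h range, and the difference was 1.13 ± 0.18 (limma adjusted p = 0.0052). The dimmer Vamp2 clone differed by 0.57 and was not called.

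Syt4, a synaptotagmin of dense-core vesicles, separated completely, with -1.0 to -0.45 at 4 h against -0.30 to 0.42 at 8 h (difference 0.84 ± 0.13, limma adjusted p = 0.0045). This was its brightest clone, and the 3 other Syt4 clones gave -0.18, -0.73 and -0.05 and were not called. Cplx2, a complexin that clamps fusion, was higher by 0.71 ± 0.14. In the other direction Syt13 was lower by -1.07 ± 0.24 in 1 of 3 clones, while its other clones gave 0.14 and 0.04. Stx7, an endosomal SNARE, was lower by -0.80 ± 0.19, and a clone titled "synaptosomal-associated protein" by -0.62 ± 0.15. So 3 of the 130 clones of the list were higher, 3 were lower and 124 were not called, with a median of 0.04. The share called was 4.62%, against 1.00% of all clones. No clone could be assigned to Snap25.

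Cpe, carboxypeptidase E, trims prohormones in the granule, and its brightest clone was lower at 8 h. The ratio ran from -0.36 to 0.84 at 4 h and from -0.76 to -0.37 at 8 h without overlap, a difference of -0.80 ± 0.14 (limma adjusted p = 0.0088). It was the only called clone of 28 for secretory granules and peptide processing (3.57%, against 1.00% of all clones). The other Cpe clones gave -0.27 and 0.21 and were not called. The proton pump that acidifies granules and lysosomes gave 3 called clones of 31, all higher (9.68%).

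Of these pump subunits, Atp6v0a1, of the membrane sector, ran from -1.42 to -0.45 at 4 h and from -0.21 to 0.57 at 8 h, again without overlap (0.98 ± 0.15, limma adjusted p = 0.0046). The other Atp6v0a1 clone gave -0.26 and was not called. Atp6v0e2, also of the membrane sector, was higher by 0.88 ± 0.18, and Atp6v1f, of the cytosolic sector, by 0.74 ± 0.14. The list's median was 0.00, that of all clones.

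Membrane traffic genes were mostly lower where they were called. Of 299 clones of the Rab and Arf list 7 were lower and 1 was higher, with a median of -0.04. The share called was 2.68%, against 1.00% of all clones and 90 of the 4073 clones on gene lists. The lower clones were 2 of Arfgef1, an exchange factor for Arf GTPases at the trans-Golgi (-0.89 ± 0.17 and -0.86 ± 0.16), 2 of Tmed2, a p24 cargo receptor (-0.63 ± 0.14 and -0.64 ± 0.15), and 1 each of Stx7, Ap1s2, an adaptor subunit, and Rab23. Vps28 of the ESCRT machinery was higher at 0.64 ± 0.15. The dim Arfgef1 clone gave 0.46 and was not called.

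For the amyloid precursor protein and its processing, 2 of 66 clones were lower and 1 was higher (4.55% called, against 1.00% of all clones), with a median of -0.01. None of the 5 App clones was called, and they ranged from -0.37 to 0.15. The brightest App clone had ratios of -0.74 to 0.10 at 4 h and -0.59 to -0.28 at 8 h, largely the same range (difference -0.15 ± 0.13, adjusted p = 0.71). Adam10, the alpha-secretase that cuts the protein in its non-amyloidogenic route, had differences below 0 in all 4 clones (-0.91 to -0.26), and 2 of them were called lower.

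The called Adam10 clones ran from -0.58 to 0.45 at 4 h against -0.98 to -0.26 at 8 h (-0.58 ± 0.14, kept in 2 of the 20 fits that left out 1 array), and from -0.80 to 1.27 against -1.05 to -0.24 (-0.91 ± 0.15, limma adjusted p = 0.0062). The times overlapped in both, and the second clone differed more on the arrays with the stressed pool in Cy3 (-1.32) than in Cy5 (-0.51). Itm2c, which binds the precursor protein, was higher by 0.60 ± 0.13, with all 10 arrays at 8 h above all 10 at 4 h. Its call held in 9 of the 20 fits that left out 1 array.

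**Figure D3:**
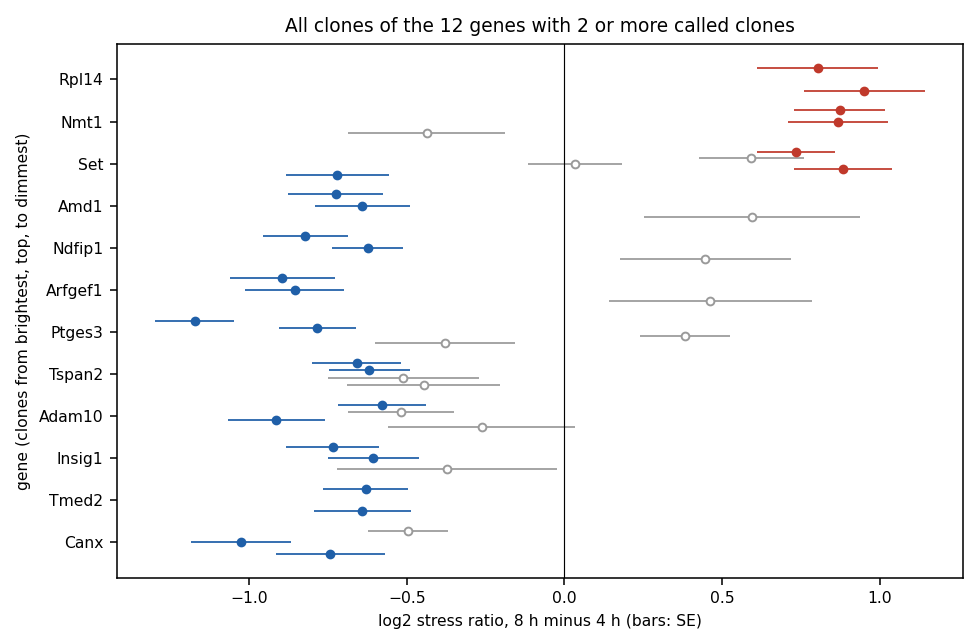
The log2 difference, 8 h minus 4 h, with its SE (horizontal axis) is drawn for every clone of the 12 genes with 2 or more called clones (vertical axis, clones ordered from the brightest). Filled points were called, red higher and blue lower, and open grey points were not called. Called clones of a gene share a direction in 11 of the 12 genes, whereas Set has called clones on both sides of 0.

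Several clones of a gene give an internal comparison, though clones of 1 gene can carry different parts of the transcript. Of 49 named genes with both called and uncalled clones, 24 had an uncalled clone whose difference pointed the other way. Among the 12 genes with more than 1 called clone, 11 had called clones of 1 direction. Nmt1, the enzyme that adds myristate to the start of many signalling proteins, was higher in 2 clones by 0.87 ± 0.14 and 0.87 ± 0.16, while the third, dim clone gave -0.44. The ratios of its brightest clone ran from -1.41 to -0.68 at 4 h and from -0.40 to 0.21 at 8 h without overlap (limma adjusted p = 0.0052).

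Ndfip1, an adaptor of ubiquitin ligases, was lower in 2 clones, and its brightest went from 0.11 to 1.13 at 4 h to between -0.66 and -0.01 at 8 h, so that every array at 4 h was above 0 and every array at 8 h below it (-0.82 ± 0.13, limma adjusted p = 0.0052). The remaining Ndfip1 clone gave 0.45 and was not called. Amd1, of polyamine synthesis, and Tspan2, a tetraspanin, were each lower in 2 clones as well. Set, an inhibitor of protein phosphatase 2A and a histone chaperone, disagreed with itself. Its 5 clones ran from -0.72 to 0.88, with 2 called higher and 1 called lower.

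Few clones on the energy metabolism lists were called, 2 of 129 for oxidative phosphorylation, 3 of 118 for mitochondrial enzymes (2.54%) and 2 of 45 for glycolysis (4.44%). These shares stand against 1.00% of all clones and 90 of the 4073 clones on gene lists. All 7 called clones were higher at 8 h. Ndufb8, a complex I subunit, ran from -1.05 to -0.25 at 4 h and from 0.00 to 0.60 at 8 h, so no array overlapped (0.89 ± 0.13, limma adjusted p = 0.0032). It and an ATP synthase subunit c clone (0.66 ± 0.15) were the called oxidative phosphorylation clones. On the list of mitochondrial enzymes they were Crot, Idh2 and Mtch1 at 0.68, 0.66 and 0.63. Only Idh2 of these is a mitochondrial enzyme, since Crot is a peroxisomal transferase and Mtch1 a mitochondrial carrier homolog. The other Crot clones gave -0.22 and -0.09 and were not called.

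The glycolysis list had a median of 0.19. Aldoc, the brain aldolase, gave 0.70 ± 0.14. Gapdh, often used as a reference transcript, gave 0.55 ± 0.13 in its brightest clone (ratios of -1.07 to -0.22 at 4 h, all below 0, and -0.41 to 0.39 at 8 h), a call kept in 1 of the 20 fits that left out 1 array. The other Gapdh clones gave 0.38 and -0.28.

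Of 122 cytosolic ribosomal protein clones 5 were higher, 1 was lower and 116 were not called, with a median of 0.15. That is 4.92% called, against 1.00% of all clones. The list was bright, with 48 clones above the empty-spot percentile on at least 5 arrays of each time. Rps27 rose without overlap, from between -1.18 and -0.31 at 4 h to between -0.19 and 0.51 at 8 h (0.84 ± 0.14, limma adjusted p = 0.0052). The other Rps27 clone gave -0.06 and was not called. Both Rpl14 clones were higher (0.95 ± 0.19 and 0.80 ± 0.19), as were Rpl19 and Rps9, while Rps6 was lower at -0.54 ± 0.12. None of 86 mitochondrial ribosomal protein clones was called, with a median of 0.05. Of 130 clones of translation factors and tRNA synthetases 1.54% were called, with a median of 0.00. The elongation factor Eef2 was higher (0.76 ± 0.16) and 1 clone of Eef1a1 was lower (-0.65 ± 0.16). The other Eef1a1 clones gave -0.73 to 0.19 without a call.

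Sterol genes were split. Insig1, which retains the sterol-sensing complex in the endoplasmic reticulum, was lower in 2 clones (-0.74 ± 0.15 and -0.61 ± 0.14). Stard4, a cholesterol carrier, was higher in 1 clone that ran from -1.16 to 0.10 at 4 h and from -0.03 to 0.82 at 8 h (1.08 ± 0.19, limma adjusted p = 0.0074). The 2 further Stard4 clones gave -0.45 and -0.24 and were not called. With Fads1, a fatty acid desaturase (0.56 ± 0.12), 2 of the 61 clones were higher and 2 lower, and the median was -0.10. The share called was 6.56%, against 1.00% of all clones.

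Of 150 ion channel clones 3 were called (2%, against 1.00% of all clones), with a median of -0.03. Cacnb3 and Cacna2d1, auxiliary subunits of voltage-gated calcium channels, were higher by 1.16 ± 0.28 and 0.69 ± 0.12, and Kcnab2, an auxiliary potassium channel subunit, was lower by -0.64 ± 0.15. The called Cacnb3 clone exceeded the empty-spot percentile on 0 arrays, and its other clones gave -0.01 and -0.05. The Cacnb3 and Kcnab2 calls each held in 4 of the 20 fits that left out 1 array. None of 275 solute carrier clones was called, and their median was 0.02.

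Among 156 clones for axon growth and adhesion 2.56% were called, against 1.00% of all clones. Lower were 3 clones, among them the adhesion molecule Cntn1 (-0.84 ± 0.15) and the Nogo receptor Rtn4r (-0.68 ± 0.14). That Cntn1 clone was the dimmest of 4, and the others gave 0.09, 0.43 and -0.43 without a call. Thy1, a neuronal surface glycoprotein, was higher by 0.74 ± 0.16, and the median was 0.01. The cytoskeleton list, of 271 clones with a median of 0.03, had 5 clones higher and 1 lower (2.21% called).

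Map1lc3a, the microtubule-associated protein light chain that marks autophagosomes, was the strongest of the cytoskeleton list. Its ratio ran from -1.53 to -0.50 with a median of -1.20 at 4 h and from -0.63 to 0.59 with a median of 0.01 at 8 h (1.18 ± 0.18, limma adjusted p = 0.0045). It was also the only call among 77 autophagy and lysosome clones (1.30%, against 1.00% of all clones, median 0.03). Map1a, Map4, the kinesin Kif5b and the dynein chain Dynlrb1 were higher by 0.95, 0.58, 0.61 and 0.58. The kinesin adaptor Kifap3 was lower at -0.62. The other Map1a clones gave -0.19 to 0.72 and were not called.

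Protein degradation gave 5 clones higher and 4 lower of 515 (1.75%, against 1.00% of all clones), with a median of -0.01. Lower were Cul4b, a ubiquitin ligase scaffold (-0.89 ± 0.17), both Ndfip1 clones and the protease Usp54. Higher were the ubiquitin-like Nedd8 (0.61 ± 0.13) and the ligases Mkrn2 and Rnf220, together with Nedd1, a centrosomal protein, and Psmc3ip, of meiotic recombination, which entered the list by their names alone.

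RNA splicing had 3 higher and 1 lower of 274 (1.46% called, against 1.00% of all clones), with a median of -0.03. Snrpn, an imprinted spliceosomal protein, was higher by 0.90 ± 0.14 and the core subunit Sf3b1 by 0.79 ± 0.18. A U2AF clone was higher by 0.68 ± 0.15, and Srsf2 was lower at -0.81 ± 0.20. The other Sf3b1 clones gave -0.06 to 0.41 and were not called. Of 166 chromatin clones the 3 of Set, Scmh1 (0.68) and the linker histone H1f3 (-0.85) were called (3.01%), with a median of -0.01. All 5 Chd4 clones, of the NuRD remodeller, were without a call (-0.39 to 0.83). The cell cycle list (178 clones, median 0.02) had 1 call (0.562%), Cdc42se1 at -0.60, an effector of a small GTPase that entered by its name. The other Cdc42se1 clone gave 0.75 and was not called.

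**Figure D4:**
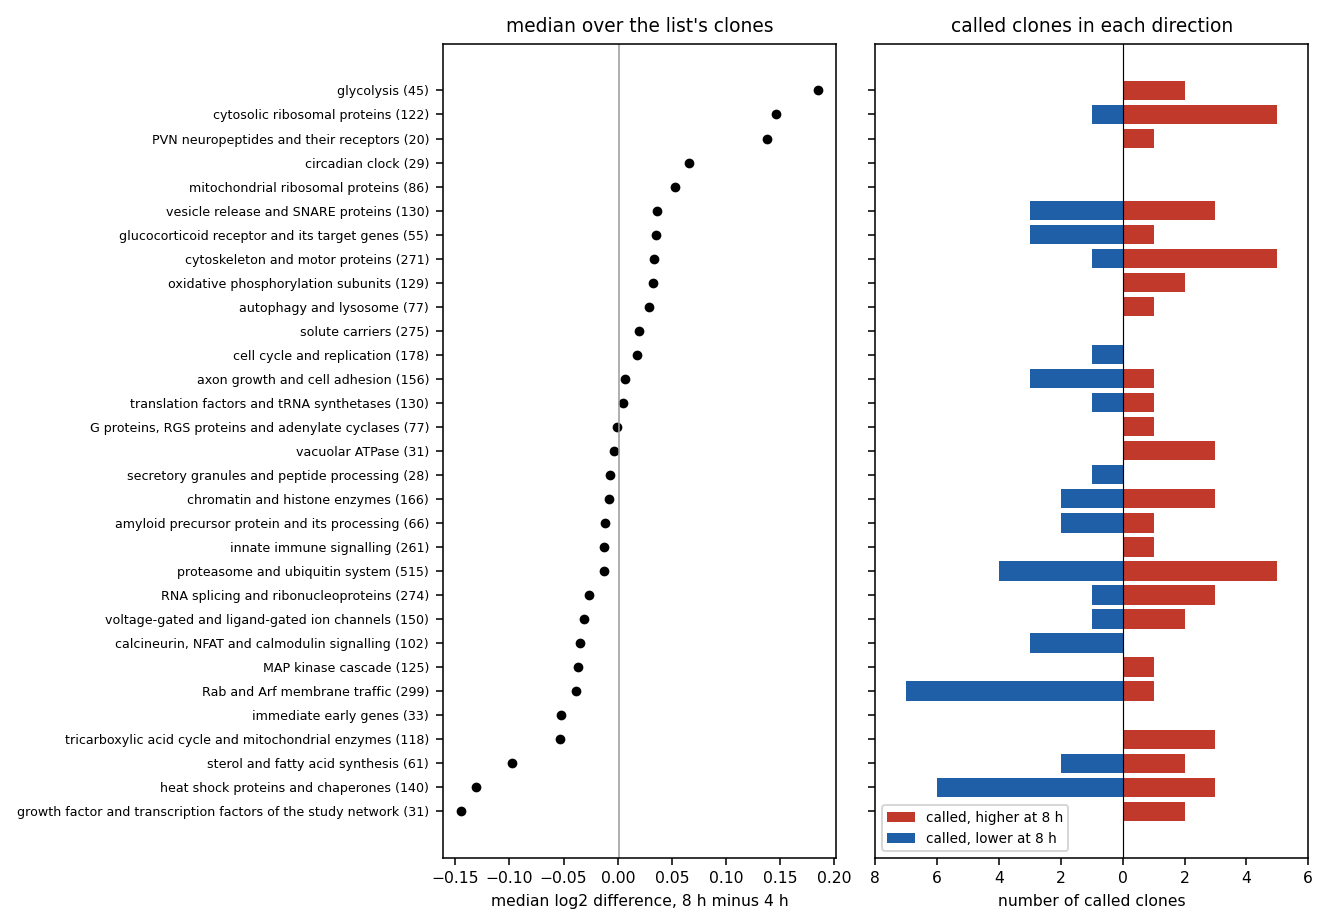
For each gene list (vertical axis, number of clones in brackets) the left panel gives the median log2 difference, 8 h minus 4 h, with a grey line at the median of all clones, and the right panel the number of clones called higher (red) or lower (blue). List medians lie between -0.15 and 0.19, and no list has more than 9 called clones.

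The largest differences among clones with a symbol included several genes outside these lists. Sox1, a transcription factor of neural progenitors, was higher by 1.35 ± 0.25, the transaminase Gpt by 1.17 ± 0.28, Serinc3, a membrane protein, by 1.13 ± 0.24, Lin37, of the DREAM complex, by 1.13 ± 0.22, and Daam2, of Wnt signalling, by 1.07 ± 0.25. At the other end stood Tmem258, a subunit of the oligosaccharyltransferase (-1.31 ± 0.32), B3galt2, a galactosyltransferase (-1.17 ± 0.25), the mannose-binding lectin Mbl1 (-1.14 ± 0.20) and the polysialic acid synthase St8sia4 (-0.95 ± 0.19). Klhl15, a ubiquitin ligase adaptor, and the nucleic acid-binding protein Cnbp closed the list at -0.93 ± 0.22 and -0.91 ± 0.18. Sox1, Gpt, Serinc3, Daam2, Mbl1, Tmem258 and Klhl15 were dim, above the empty-spot percentile on 0 arrays. Nedd1, H1f3, Homer3 and Clpx likewise exceeded it on 0 arrays. Lin37 and the called clones of Map1a and Syt13 exceeded it on 1 array of 4 h and 0 of 8 h. On the 8 h arrays the called clones of Vamp2, Map1lc3a, Brsk2, Atp6v0a1, Stard4, B3galt2 and St8sia4 never exceeded it. At 4 h those clones exceeded it on 8 or 10 arrays. The percentile itself was higher at 8 h. The other Sox1 clones gave 0.04 and -0.02 and the other Serinc3 clones -0.29 to 0.17, without a call. Leaving out 1 array kept Sox1, Lin37, Mbl1, St8sia4 and Cnbp in all 20 fits, but B3galt2 in 17, Serinc3 in 14, Tmem258 and Klhl15 in 5, Gpt in 4 and Daam2 in 2.

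Further genes on which the study had drawn gave no call or a borderline one. Clpx, the ATPase of the mitochondrial matrix protease, had ratios of 0.13 to 1.83 at 4 h, all above 0, and of -1.65 to 0.72 at 8 h (-1.07 ± 0.27, adjusted p = 0.056). Cd200, a neuronal ligand that restrains microglia, differed by -0.62 ± 0.21 (adjusted p = 0.19), and Cdkn1b, a cell cycle inhibitor, by -0.18 ± 0.32. The 3 Tcf7l2 clones, of Wnt signalling, ran from -0.66 to -0.23. Homer3, a postsynaptic scaffold, was called in 1 of 2 clones, at 0.95 ± 0.21. Hspa1a, Prc1 and Ctso had no clone that could be assigned.

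Markers of other cell types were examined because a micropuncture can differ in its cell content. Hcst, a signalling adaptor of immune cells, was the only call among 261 innate immune clones (0.383%, against 1.00% of all clones, median -0.01). It was also the only call among 20 clones of microglia and macrophages (5%). Its ratio ran from -0.85 to 0.09 at 4 h and from 0.04 to 1.06 at 8 h (0.99 ± 0.16, limma adjusted p = 0.0052), with all 10 arrays above 0 at 8 h. The microglia list as a whole had a median of 0.02. Its share of the summed signal of both pools was 0.0462% to 0.0570% at 4 h and 0.0295% to 0.0374% at 8 h, and none of its clones exceeded the empty-spot percentile on 5 arrays of each time.

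The astrocyte list had 3 called of 48 (6.25%, against 1.00% of all clones), with a median of 0.06. Mt1 and Aldoc were higher and Gpm6b, a membrane proteolipid, lower (-0.70 ± 0.15). The neuron list had Thy1 as its 1 call of 51 (1.96%, median 0.04). On the endothelial and mural list Sparc, a matrix glycoprotein, was 1 of 40 (0.76 ± 0.17, 2.5% called, median 0.02). The other Sparc clones gave -0.12 to 0.21 and were not called. None of 57 oligodendrocyte clones was called (median 0.04). Among the 11 PVN neuron clones (18.2% called) Trh was higher and Nkx2-2, a homeobox factor, lower (-0.80 ± 0.19), with a median of 0.00.

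No clone was called for blood cells (9 clones), choroid plexus and ependyma (20), thalamus (21), cortex, hippocampus and striatum (16) or other hypothalamic nuclei (13). The blood list nevertheless had a median difference of 0.46, with 8 of 9 clones above 0, from a median ratio of -0.11 at 4 h to 0.33 at 8 h. The medians of the other 4 lists were 0.17, -0.06, 0.00 and -0.05. The summed share of the blood list was 0.0689% to 0.121% at 4 h and 0.102% to 0.124% at 8 h, that of the thalamus list 0.260% to 0.333% and 0.219% to 0.251%. Their part in the results above was not tested.

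The same contrast in C57BL/6, from other animals and another basal pool, mostly did not follow that of DBA/2J. Of the 128 clones higher at 8 h in DBA/2J, 84 were below 0 in C57BL/6 (median -0.19), and of the 101 lower ones 80 were above 0 (median 0.20), whereas 49.4% of all clones were above 0. By the same rule 193 clones were called in C57BL/6 (0.846%). Of the 229 DBA/2J clones 22 were among them in the opposite direction and 5 in the same.

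The difference between the strains was itself tested over all clones, and 639 passed (2.80%). In 276 of them 8 h minus 4 h was more positive in DBA/2J than in C57BL/6 (1.21%), and in 363 it was more negative (1.59%). Because clones were named for their DBA/2J difference, their strain difference is not independent of that choice. Ptges3 had the clearest one, since its brightest clone fell by 1.17 in DBA/2J and had a difference of 1.57 in C57BL/6 (strain difference -2.74, limma adjusted p = 4.2e-10). Stard4 had 1.08 against -1.07 (strain difference 2.15, limma adjusted p = 6.7e-08), and the brightest Arfgef1 clone -0.89 against 1.20 (strain difference -2.09, limma adjusted p = 1.4e-08). For Daam2, Mbl1, Tmem258, Syt13, Nfat5, Klhl15 and Cnbp no strain difference passed the test.

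**Figure D5:**
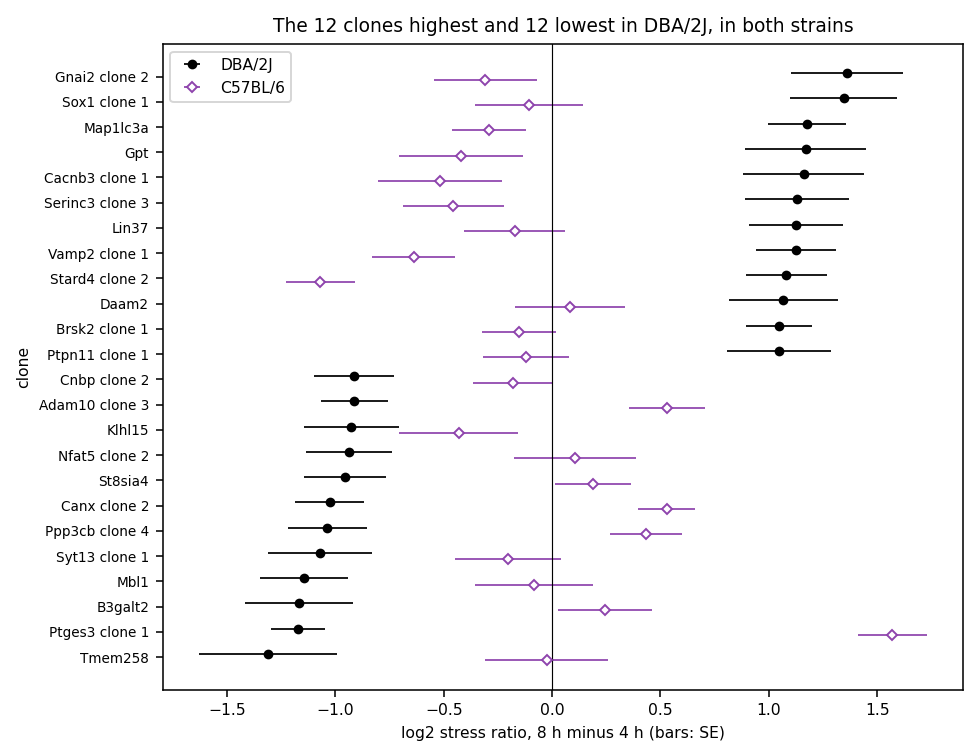
The log2 difference, 8 h minus 4 h, with its SE (horizontal axis) is shown for the 12 highest and 12 lowest called clones of DBA/2J that have a symbol (vertical axis), in DBA/2J (filled circles) and in C57BL/6 (open diamonds). The DBA/2J values were chosen for their size. The C57BL/6 values were not, and 11 of the 12 highest lie below 0 there, while 7 of the 12 lowest lie above 0.

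The number of calls depended on which arrays were in the fit. Leaving out 1 of the 20 arrays gave 120 to 203 calls, and it moved the count by over 1.5 times for arrays 1 and 8 of 4 h (144 and 150) and for every array of 8 h but array 3 (120 to 149). With either dye orientation alone, or with the arrays of an orientation averaged, limma called 0 clones, although 2277, 2705 and 1227 clones had an unadjusted p under 0.05, against 2769 in the fit reported here.

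Of the 76 called clones named by the rule given under processing, 19 kept their call in 5 or fewer of the 20 fits that left out 1 array. A further 16 kept it in more but not all. Besides those already given, Srsf2 and Stx7 kept it in 1 fit, Eef1a1, Pea15a and the weaker Insig1 clone in 2, the weaker Rpl14 clone and Nkx2-2 in 3, Mtch1 in 4 and Nedd1 in 5. Homer3, Kifap3, Sf3b1 and Syt13 kept it in 6, Sparc in 8, Idh2 in 11, Map1a and Thy1 in 12, Eef2 and Gpm6b in 16 and Nfat5 in 19. Called clones named outside that rule, such as those of Cct4, Plcb3, Cplx2 and Nedd8, are not in these counts, and their stability is not given.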

How the data were processed

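Each array's deposited file holds scanned Cy5 and Cy3 intensity and local background, unnormalized (ScanArray scanner, QuantArray, fixed circle). The dye of each channel was read from the file header, because array 10 of 8 h has its channels in the other order. The authors also deposited a processed table of log2 ratios, which correlated at r = 0.887 to 0.972 with the scanned ratios and served as an alternative. From the intensities, normexp background correction (offset 50) and loess within each array were run in limma 3.58.1 (R 4.3.3), with 1 dye term per comparison and 16 residual degrees of freedom. Each spot counted as 1 clone, and control spots were left out of the fit. Symbols were assigned to 8192 of 22824 clones by identifier or title through RefSeq tables, and 14632 had none. An array exceeded background for a clone above the 95th percentile of empty spots. In simulated data the fit called 0% of clones changed by 0.5, 12% at 0.75, 42% at 1 and 80% at 1.5. A clone that was not called may therefore still have differed. The number of arrays limits the precision.

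Named were the 12 largest rises and the 12 largest falls among called clones that carried a symbol and kept their sign in either orientation, up to 3 called per list, and every clone of 30 genes of the study or the stress axis, with others chosen after their values were seen. Genes, 31 gene lists and 11 marker lists were chosen with earlier results of these data known. Alternatives changed 1 choice at a time: background correction, normalization, filter, dye term, test, threshold, orientation, single arrays, scan day, replicate number, all 50 arrays and the authors' table. Reading the first channel as Cy5 on every array was chosen after seeing the data. A result that is withheld is not reported here.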

Additional observations from a re-analysis of the deposited data

Results flagged for a closer look

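Where 1 of the 10 arrays of a time stood apart from the other 9 by Dixon's criterion, the log2 stress ratio is given here. This occurred 11 times in 184 sets of 10 arrays, and chance alone gives about 1 in 20. The clones of a gene are numbered from the brightest. Serinc3 clone 3 was 0.80 on array 4 of 4 h, above the other 9 at -1.02 to -0.05. Sparc clone 4 was 0.38 on array 10 of 4 h, above the other 9 at -1.19 to -0.40. Eef2 clone 1 was 0.24 on array 10 of 4 h, above the other 9 at -1.25 to -0.56. Thy1 clone 1 was 0.0095 on array 4 of 4 h, above the other 9 at -0.97 to -0.47. Nfatc1 clone 1 was -1.52 on array 5 of 4 h, below the other 9 at -0.21 to 0.53. App clone 1 was -0.28 on array 9 of 8 h, above the other 9 at -0.59 to -0.44. Ppp3cb clone 1 was 0.79 on array 7 of 4 h, above the other 9 at -0.09 to 0.20. Canx clone 1 was -0.37 on array 1 of 4 h, below the other 9 at 0.09 to 0.60. Nr3c1 was -0.17 on array 7 of 4 h, below the other 9 at 0.38 to 0.97. Cntn1 clone 4 was 0.39 on array 7 of 8 h, above the other 9 at -0.81 to -0.21. Clpx was -1.65 on array 1 of 8 h, below the other 9 at -0.54 to 0.72. No explanation was tested for any of these arrays.

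The difference between 8 h and 4 h itself differed between DBA/2J and C57BL/6 (limma, adjusted p under 0.05 and a difference of at least 0.5 on the log2 scale) in 64 of the 92 clones of the naming rule. They had been named for their DBA/2J difference or for an interest of the study. A positive value means that 8 h minus 4 h was more positive in DBA/2J, whatever its size. Positive differences were 1.67 for Gnai2 clone 2, 1.45 for Sox1 clone 1, 1.47 for Map1lc3a, 1.59 for Gpt, 1.68 for Cacnb3 clone 1, 1.59 for Serinc3 clone 3, 1.30 for Lin37 and 1.77 for Vamp2 clone 1. Further ones were 2.15 for Stard4 clone 2, 1.20 for Brsk2 clone 1, 1.17 for Ptpn11 clone 1, 1.06 for Hcst, 1.18 for Atp6v0a1 clone 1, 1.59 for Rpl14 clone 2, 1.36 for Homer3 clone 1 and 1.31 for Nedd1. Then came 1.29 for Snrpn, 1.39 for Ndufb8, 1.14 for Atp6v0e2 clone 2, 1.07 for Nmt1 clone 1, 1.48 for Mapk3, 1.46 for Rps27 clone 1, 1.16 for Syt4 clone 1 and 1.12 for Trh. In the same direction the value was 1.17 for Rpl14 clone 1, 0.96 for Sparc clone 4, 1.21 for Eef2 clone 1, 1.19 for Atp6v1f, 1.23 for Thy1 clone 1, 1.05 for Aldoc clone 1, 1.14 for Cacna2d1 clone 1 and 0.86 for Crot clone 1. Also positive were 1.21 for Pea15a clone 1, 0.96 for Idh2 clone 2, 0.83 for Mtch1 clone 1, 1.04 for Itm2c clone 2, 0.86 for Gapdh clone 1 and 0.96 for Fkbp5. The largest negative differences were -2.74 for Ptges3 clone 1, -2.09 for Arfgef1 clone 1, -1.76 for Arfgef1 clone 2, -1.64 for Ptges3 clone 2, -1.61 for Adam10 clone 1, -1.55 for Canx clone 2 and -1.52 for Insig1 clone 2. Further negative ones were -1.47 for Ppp3cb clone 4, -1.45 for Adam10 clone 3, -1.41 for B3galt2, -1.39 for Insig1 clone 1, -1.30 for Cd200, -1.30 for Cntn1 clone 4 and -1.15 for Gpm6b clone 2. Then followed -1.14 for St8sia4, -1.14 for Cul4b clone 1, -1.12 for Srsf2 clone 2, -0.99 for Ndfip1 clone 1, -0.98 for Stx7 clone 2 and -0.85 for Eef1a1 clone 2. Nearer to 0 were -0.84 for Nr3c1, -0.80 for Cpe clone 1, -0.71 for Kcnab2, -0.71 for Cdc42se1 clone 1, -0.67 for Itpr1 clone 1 and -0.60 for Tcf7l2 clone 1. 

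Control spots were outside the comparison. Of 1368 control spots 2 passed the rule for the time contrast, and both were empty spots.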

How the results depend on the processing

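The 229 calls became 74 without a dye term, 373 with all 50 arrays in 1 fit, 84 with the first channel read as Cy5 on every array (an alternative chosen after seeing the data), 1538 with an unmoderated 2-sample t-test at the fold and an unadjusted threshold (the methods used a 1-sample t-test on each comparison), and 2924 by the fold alone. They became 0 with the stressed pool in Cy5 alone, 0 in Cy3 alone and 0 with the arrays of an orientation averaged, fits with fewer samples. Single arrays left out gave 120 to 203 calls, of which 120 to 172 were among the 229. With the replicate number as a block, as if same-numbered arrays were pairs, limma called 0 clones (2523 at an unadjusted p under 0.05). The numbers do not pair the arrays, as residuals of same-numbered arrays correlated at -0.0164 to 0.00457 and 0 arrays correlated best with their own number. The other alternatives gave 154 to 339 calls, and the strain difference 578 to 713. Median centring moved the share of strain differences that were higher in DBA/2J from 43.2% to 53.7%. Of the 76 called clones of the naming rule, none changed sign under any alternative, and 41 stayed called without each array in turn. The alternatives reuse the arrays on which these clones were chosen. Part of them also had to keep their sign in both orientations to be named. The kept sign is therefore a description and no independent support. The cause of these changes was not tested. Few clones exceeded the brightest empty spots, with 5.60% to 9.13% of clones above their 95th percentile on an 8 h array. The median empty spot on these arrays was at 75.5 to 141.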
